A study of Mus musculus with 42 samples.

Results

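Whole aortas of mice fed an EPA-rich diet were compared with whole aortas of mice fed a DHA-rich diet. The comparison used 10 libraries of the 42 in the series, 5 from each diet, chosen by their tissue and diet labels, and every gene with enough counts in them, which was 5301 genes of the 48709 in the table. All mice, on every diet, were of the K14-Rac1V12 strain, which the study uses as a psoriasis model. In it, the keratin 14 promoter drives a constitutively active Rac1, a small GTPase, so the transgene is directed to keratinocytes and not to the vessel wall. Mice were 14 weeks old when the feeding began and had first spent 2 weeks on an omega-3-deficient (OD) diet. They were then fed for 12 weeks with the OD diet, with 3 g of EPA per kg of diet, or with DHA at the same stated amount, which was set to match a human intake of 4 g a day. The dose given in the labels for the DHA diet is itself written as grams of EPA and is read here as DHA. The 4 OD aortas are given as a reference level and took no part in the main test. Libraries are named by diet and a replicate number in the order of deposition. The labels do not say whether each library is a separate mouse, so p-values measure the spread between libraries.

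Eicosapentaenoic acid (EPA) and docosahexaenoic acid (DHA) are the main long-chain omega-3 fatty acids of fish oil. Both are ligands of PPAR transcription factors, both reduce the activity of SREBP1, the transcription factor of fatty acid synthesis, and both compete with arachidonic acid in membrane phospholipids. EPA is the direct precursor of series-3 prostanoids, and DHA is longer and more unsaturated and is kept in phospholipids. In vessels, the fatty acids reach endothelium, smooth muscle and the fat around the vessel, and brown adipocytes of that fat oxidise fatty acids for heat.

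No gene was called different between the diets. Of 5301 genes, 0 (0% of those tested) passed a Benjamini-Hochberg adjusted p of 0.05 in the quasi-likelihood test of edgeR. The lowest adjusted p was 0.998. DESeq2 also gave 0. At an unadjusted p under 0.05 there were 200 genes, 3.77% of those tested, of which 87 (1.64%) were higher on EPA and 113 (2.13%) lower. Library counts were few, with totals of 302756 to 641389 on EPA and 328295 to 608224 on DHA, so the size of difference that the data allow is given with each result. The log2 difference of a gene, EPA minus DHA, had a median size of 0.14, and 96.8% of genes lay under 0.5. The 95% interval of a gene's log2 difference reached a median of 0.45 to either side, which is 1.36-fold. For 4987 genes, 94.1%, the whole interval lay within a 2-fold difference in either direction, and for 47.9% it lay within 1.5-fold. Of the 1326 genes with the lowest levels, with a median of 35.3 CPM (counts scaled to a common library size), 83.7% of intervals lay within 2-fold, against 98.7% of the 1325 with the highest levels, with a median of 210.3 CPM. No interval lay wholly beyond a 2-fold difference. These intervals bound each gene by itself and do not show that the fatty acids act alike.

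**Figure D1:**
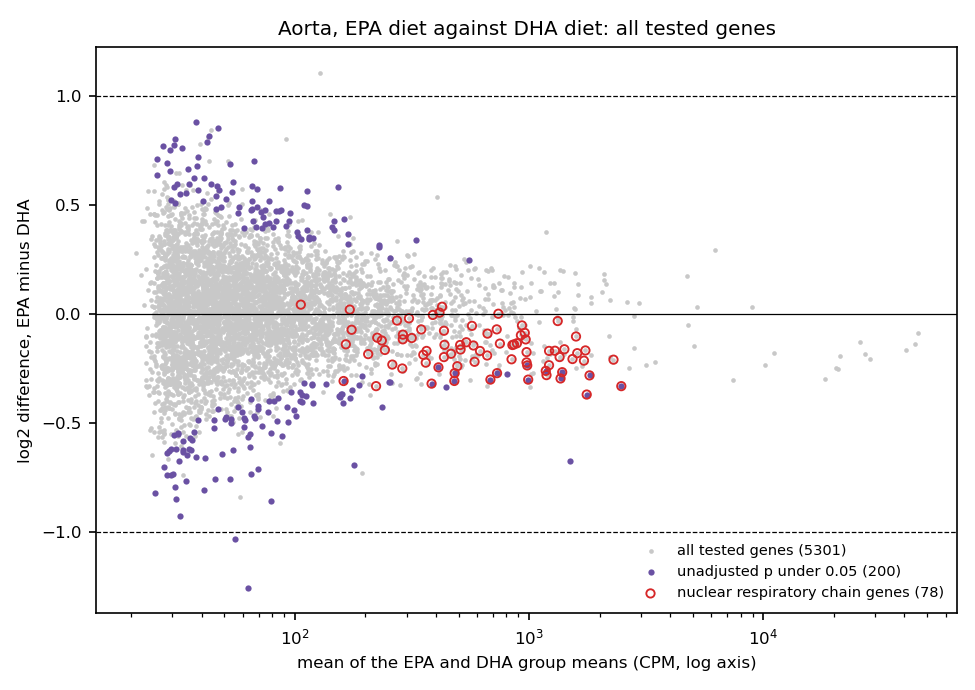
Each point is 1 of 5301 genes, with its mean level in CPM on a log x axis and its log2 difference, EPA minus DHA, on the y axis; dashed lines mark a 2-fold difference. The 200 genes at an unadjusted p under 0.05 (purple) lie on both sides of 0, and the 78 nuclear respiratory chain genes (red rings) lie mostly below 0, between -0.37 and 0.04.

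The libraries were like vessel wall with adipocytes. The smooth muscle actin Acta2 was at 3843 to 7097 CPM across the 10 libraries and the endothelial marker Pecam1 at 119.1 to 179.6. Perivascular fat was taken off at dissection according to the labels, but Ucp1, the uncoupling protein of brown adipocytes, was at 924.9 to 2577 CPM and the adipocyte hormone Adipoq at 202.8 to 468.2 CPM. In a bulk sample, fewer cells of a type and less RNA per cell cannot be told apart, and this holds for every gene list that follows. Mitochondrial transcripts made up 23.4% ± 1.99 (SD, n = 5) of counts on EPA and 25.2% ± 3.41 on DHA (difference -1.75 percentage points, two-sided exact permutation test, p = 0.389, adjusted over 2 tests 0.778; the smallest p possible is 0.00794), and 18.4% ± 7.14 (n = 4) on OD. Library totals were 466700 ± 146900 and 457600 ± 123000 (p = 0.865 in the same exact test).

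Some libraries stood apart. EPA replicate 1 lay at -32.3 on the first principal component, which held 20.9% of the variance, with the other 9 libraries between -6.69 and 10.9. The Xist transcript of the inactive X chromosome was at 485.5 CPM in EPA replicate 1, 372.6 in EPA replicate 5 and 409.1 in DHA replicate 1, with at most 1 count from Y-linked genes in each, and at most 4.74 CPM in the other 7, so females and males may be mixed in both groups. DHA replicate 3 had 9 Y-linked counts. The skeletal muscle actin Acta1 was at 357.7 CPM in EPA replicate 2, 213.3 in DHA replicate 3 and 147.2 in DHA replicate 5, and at most 21.8 elsewhere. Haemoglobin transcripts ranged from 11730 to 115900 CPM on EPA, the highest in replicate 5, and from 3438 to 79870 on DHA. The part of these differences in the results was not tested unless a value without the library is given.

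Nuclear genes of the respiratory chain, whose proteins pass electrons from NADH and succinate to oxygen and make ATP, lay nearly all below 0. Of 78 genes tested for complexes I to V and cytochrome c, 74 (94.9%) had a fitted log2 difference below 0, against 48.2% of all genes. The median log2 difference was 0.01 over all genes and -0.17 over the 78. None passed the adjusted test. At an unadjusted p under 0.05, 15 were lower (19.2%, against 2.13% of all genes) and 0 were higher. These genes move together from library to library, so the count is not that of 78 independent differences. By complex, the genes below 0 were 36 of 37 for complex I, 4 of 4 for complex II, 9 of 9 for complex III, 12 of 12 for complex IV and 12 of 15 for complex V. Complex IV, cytochrome c oxidase, had the lowest median, -0.21. The whole chain's intervals were narrow: all 37 genes of complex I and all 41 others lay within 2-fold, and reached a median of 0.29 and 0.27 to either side.

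EPA replicate 1 stood apart in these lists. The mean log2 CPM of the complex I genes was 8.41 in that library, 8.84 to 8.99 in EPA replicates 2 to 5, 8.94 to 9.02 in the DHA libraries and 8.09 to 8.49 in the OD libraries. For complexes II to V it was 9.14 in EPA replicate 1, 9.49 to 9.61 in the other EPA libraries, 9.62 to 9.68 in DHA and 8.65 to 9.22 in OD. EPA replicate 1 thus lay inside the OD range for both lists, and the other EPA libraries lay above it. Without EPA replicate 1 the median over the 78 genes was -0.09, with 68 below 0 and 6 at an unadjusted p under 0.05. Without DHA replicate 2, 4 were at that p. Scaled by library totals alone, without TMM, the median was -0.11 where that of all genes was 0.06, 67 were below 0, and 0 were lower at an unadjusted p under 0.05. Brown adipocyte transcripts were also low in EPA replicate 1, with a list mean of 7.05 against 7.37 to 7.89 in the other EPA libraries and 7.59 to 7.77 in DHA. With that list's mean in the fit, the median of the 78 genes was -0.10 and 5 were lower at that p. Cox7a1 and Cox8b are in both lists, so this fit adjusts some of the 78 genes partly by themselves. It cannot separate adipocyte content from the respiratory genes. How much of the difference goes with adipocyte content was not tested.

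**Figure D2:**
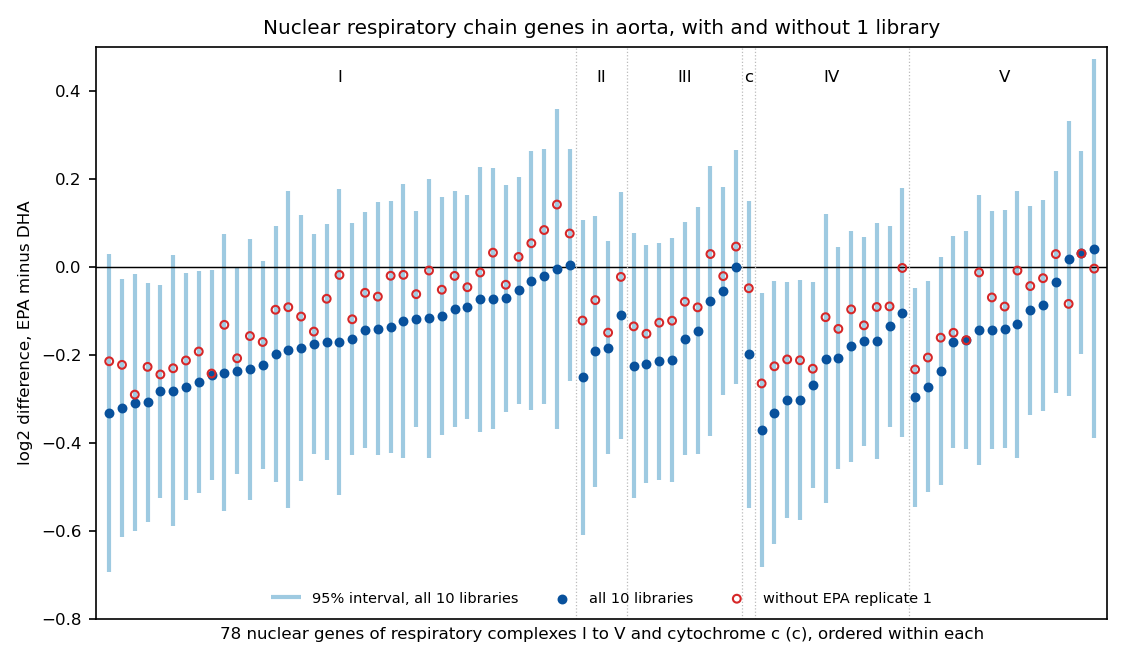
Each column is 1 of the 78 nuclear respiratory chain genes, grouped by complex, with its log2 difference, EPA minus DHA, over all 10 libraries (blue) with the 95% interval, and without EPA replicate 1 (red ring). 74 blue points lie below 0, and most red rings lie closer to 0, with a median of -0.09 against -0.17.

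The single genes of the chain differed by little. Ndufc1, a small accessory subunit of complex I, was at 1451, 1732, 1658, 1708 and 1613 CPM in EPA replicates 1 to 5 and at 2109, 1990, 1945, 1908 and 2009 CPM in DHA replicates 1 to 5. Every DHA library lay above every EPA library, and the OD libraries, at 996.9 to 1385, lay below both. Its log2 difference was -0.28 ± 0.12 (SE; 95% interval -0.53 to -0.04; adjusted p = 0.998). Cox6a1, the widely expressed form of a nuclear subunit of cytochrome c oxidase, was at 1121, 1302, 1198, 1270 and 1380 CPM on EPA and 1513, 1543, 1524, 1451 and 1547 CPM on DHA. Its groups did not overlap either, with OD at 686.3 to 1138, and the log2 difference was -0.27 ± 0.11 (interval -0.50 to -0.03). Atp5j2, a subunit of the membrane part of ATP synthase, was at 992.5, 1224, 1319, 1224 and 1343 CPM on EPA and 1522, 1621, 1518, 1396 and 1469 CPM on DHA, again without overlap, with a log2 difference of -0.30 ± 0.12. In all, 33 genes of 5301 (0.623%) had groups that did not overlap, 6 with EPA above DHA and 27 with DHA above EPA. Of the 33, 9 were respiratory chain genes, all with DHA above: Ndufc1, Ndufa4, Ndufb2, Uqcrq, Cox5a, Cox6a1, Cox7c, Atp5f1 and Atp5j2. Ndufa4 is listed by its name under complex I, though its protein is now placed in complex IV. Counts of such small genes can include reads of processed pseudogenes, which the files do not separate.

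Cox7a1 and Cox8b, the cytochrome c oxidase isoforms of muscle and brown fat, had the 2 lowest values in complex IV. Cox7a1 was at 1057, 1586, 1694, 1657 and 1674 CPM on EPA and 2022, 2405, 2143, 1707 and 1678 CPM on DHA, so the groups overlapped, with EPA replicate 1 lowest. The log2 difference was -0.37 ± 0.15 (interval -0.68 to -0.06) and -0.27 without EPA replicate 1. Cox8b was at 1508 CPM in EPA replicate 1, 2285 to 2513 in the other EPA libraries and 2510 to 2997 on DHA, with a log2 difference of -0.33 ± 0.14. In complex I, Ndufv2, an iron-sulphur subunit of the NADH-binding arm, had a log2 difference of -0.31 ± 0.13 and Ndufs5, an accessory subunit, of -0.32 ± 0.14, both with EPA replicate 1 lowest.

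Promoters are shown for a pair of the genes whose groups did not overlap, since many respiratory genes share motifs of the factors NRF1 and ERR alpha. The 250 bases before the start of each gene were taken from RefSeq on GRCm38.p6, 5′ to 3′ on the gene's strand, and 66 of the 78 respiratory genes matched that table. Capitals mark an NRF1 core, CGCATGCG, in Cox6a1, and an ERR monomer site, AAGGTCA, in Ndufb2. The annotated gene start used for counting may differ from the RefSeq start.
Cox6a1, chr5:115348959-115349208, minus strand: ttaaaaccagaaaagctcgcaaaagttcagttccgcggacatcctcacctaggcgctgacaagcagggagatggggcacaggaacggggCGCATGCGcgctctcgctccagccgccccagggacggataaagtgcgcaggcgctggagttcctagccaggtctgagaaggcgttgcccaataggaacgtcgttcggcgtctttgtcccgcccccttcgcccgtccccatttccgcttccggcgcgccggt
Ndufb2, chr6:39592315-39592564, plus strand: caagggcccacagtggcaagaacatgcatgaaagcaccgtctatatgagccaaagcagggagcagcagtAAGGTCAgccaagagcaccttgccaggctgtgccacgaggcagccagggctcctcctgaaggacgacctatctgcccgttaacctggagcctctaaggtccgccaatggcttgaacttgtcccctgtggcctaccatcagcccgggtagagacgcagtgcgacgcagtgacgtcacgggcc
Searched on both strands, the NRF1 core was found for 8 of the 66 respiratory genes matched (12.1%) and for 4.1% of the 4242 tested genes matched. A gene was counted if any of its promoters held the motif. Of all 32851 promoters, counted singly, 1.5% held it, so that share has another unit. For the ERR monomer site the shares, in the same order, were 7.6%, 3.4% and 4.1%. Of the 9 genes whose groups did not overlap, 8 matched the table, 1 with the NRF1 core and 1 with the ERR monomer site. The NRF1 core reads the same on both strands and neither motif contains the other. A match describes letters only.

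The 13 protein-coding transcripts of the mitochondrial genome had a median log2 difference of -0.18, with 12 below 0 and 1 lower at an unadjusted p under 0.05. The median was -0.09 without DHA replicate 1. The 1 gene was mt-Atp8, a subunit of ATP synthase, at 1405, 1458, 990.3, 982.3 and 909.7 CPM on EPA and 3372, 1585, 1502, 1427 and 1347 CPM on DHA. DHA replicate 1 was far above the rest, and the log2 difference of -0.68 ± 0.22 became -0.35 without it. The gene overlaps mt-Atp6 (log2 difference -0.14 ± 0.19), from whose transcript its reads cannot be told apart. The citric acid cycle and pyruvate entry list had 20 of 22 genes below 0, a median of -0.19 and 2 lower at that p. These were Pdhx, the component that binds the E3 enzyme in the pyruvate dehydrogenase complex (36.5 to 78.6 CPM on EPA, 70.7 to 87.9 on DHA; -0.55 ± 0.21), and Dld, the E3 enzyme itself (188.5 to 260.4 on EPA, 239.3 to 317.2 on DHA; -0.31 ± 0.13). The groups overlapped for both. Of all tested genes, 2.13% were lower at that p and 48.2% lay below 0. The median of the citric acid cycle list was -0.12 without EPA replicate 1, and without the 3 high-Xist libraries 0 of its genes were lower at that p and 1 was higher.

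Fatty acid oxidation genes had the median nearest 0 of the mitochondrial lists, -0.11. Of 30 genes 26 lay below 0 (86.7%, against 48.2% of all tested genes), and 0 passed an unadjusted p of 0.05 in either direction. Without EPA replicate 1 the median was -0.03. Cpt1b, the carnitine palmitoyltransferase of muscle and brown fat that admits fatty acids to mitochondria, was at 124.5, 210.1, 106.6, 168 and 202.8 CPM on EPA and 147.4, 144.1, 175.5, 174.1 and 178.1 CPM on DHA, with the DHA values inside the EPA range. Its log2 difference was 0.01 ± 0.17 (interval -0.35 to 0.37), so a difference beyond 1.5-fold lay outside its interval. Hadha, a subunit of the trifunctional protein of beta-oxidation, had a log2 difference of -0.14 ± 0.13 and Cpt2, the inner membrane transferase, of -0.07 ± 0.15. Hadh, a dehydrogenase of beta-oxidation, had the smallest p of the list (-0.20 ± 0.12, unadjusted p = 0.102). Pdk4, the kinase that switches off pyruvate dehydrogenase, was at 153 to 501.3 CPM on EPA and 301.7 to 398 on DHA (-0.11 ± 0.21), and Angptl4, the secreted inhibitor of lipoprotein lipase, at 10.7 to 95 on EPA and 44.5 to 93.9 on DHA (-0.09 ± 0.33). Both are PPAR targets, and for both EPA replicate 1 was the lowest library and the sign turned without it.

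Fatty acid and triglyceride synthesis genes lay below 0 in 26 of 27 cases with a median of -0.16, and 2 were lower at an unadjusted p under 0.05, against 48.2% and 2.13% of all tested genes. Without EPA replicate 1, without DHA replicate 1 or without the 3 high-Xist libraries, 0 were lower at that p, and the median was -0.12 without EPA replicate 1 and -0.09 without the 3. Scd1, which makes monounsaturated fatty acids, was at 6232, 8394, 9895, 12740 and 9631 CPM on EPA and 12910, 10880, 11690, 12070 and 7721 CPM on DHA. The ranges overlapped widely and the log2 difference was -0.23 ± 0.19 (interval -0.63 to 0.17). Fasn, fatty acid synthase, was at 2099 to 3788 CPM on EPA and 3278 to 4349 on DHA, with EPA replicate 1 lowest (-0.22 ± 0.16). Elovl6, the elongase of saturated fatty acids, was at 309.5 to 634.4 CPM on EPA and 534.3 to 839.7 on DHA (-0.30 ± 0.16, interval -0.65 to 0.04). G6pdx, the first enzyme of the pentose phosphate pathway, was at 53.4, 100.5, 89.8, 96.7 and 78.1 CPM on EPA and 125, 101.9, 104.1, 115.5 and 100.2 CPM on DHA, nearly apart. Its log2 difference was -0.36 ± 0.17 (unadjusted p = 0.0457), and -0.14 without the 3 libraries with high Xist. Acss2, which activates acetate, had -0.43 ± 0.20, with DHA replicate 1 at 458.3 CPM and the other DHA libraries at 187.9 to 271.4. Srebf1, which encodes SREBP1, was the exception, at 47.5 to 107.9 CPM on EPA and 57.1 to 75.1 on DHA (0.16 ± 0.21), and its sign turned without EPA replicate 5.

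Genes that make and place polyunsaturated fatty acids were sparse, with 16 of 34 listed genes tested. The list's median was -0.06 with 7 above and 9 below 0. At an unadjusted p under 0.05, 0 were lower and 1 was higher (6.25%, against 1.64% of all tested genes). That gene was Lpcat3, an acyltransferase that places polyunsaturated fatty acids in phospholipids and a target of the sterol receptor LXR. It was at 32, 38.4, 53.3, 68.7 and 40.9 CPM on EPA and 28.8, 24.6, 30.6, 36.2 and 33.4 CPM on DHA, with only EPA replicate 1 inside the DHA range, and at 25.1 to 39 on OD. The log2 difference was 0.57 ± 0.24 (interval 0.06 to 1.07, unadjusted p = 0.0289), and 0.40 without EPA replicate 4. The delta-5 desaturase Fads1 was at 25.4 to 67.6 CPM on EPA and 28.8 to 55.6 on DHA (0.08 ± 0.26), and the polyunsaturated fatty acid elongase Elovl5 at 78.3 to 109.6 on EPA and 83.7 to 128.2 on DHA (-0.13 ± 0.16). Acsl4, the acyl-CoA synthetase that prefers polyunsaturated fatty acids, had 0.20 ± 0.30. Fads2, the delta-6 desaturase, had 1 count in all EPA libraries and 0 in DHA, and Elovl2, the elongase towards DHA, 8 and 5, too few to test.

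Eicosanoid genes were few: 8 of 35 had enough counts, with a median of 0.08. At an unadjusted p under 0.05, 1 was lower (12.5%, against 2.13% of all tested genes). Prostacyclin synthase, Ptgis, was at 387.7, 224.7, 345.1, 264.7 and 286.5 CPM on EPA and 326.9, 263.7, 257.1, 351.7 and 281 CPM on DHA. The DHA values lay inside the EPA range, and the log2 difference was 0.01 ± 0.15 (interval -0.30 to 0.32). Cyclooxygenase-1, Ptgs1, had 0.17 ± 0.30, and soluble epoxide hydrolase, Ephx2, 0.06 ± 0.15. The gene lower at that p was Ptges2, a membrane-associated prostaglandin E synthase, at 17.8, 18.3, 19.6, 25.4 and 29.8 CPM on EPA and 25.6, 38.7, 36.7, 36.2 and 61.2 CPM on DHA (-0.80 ± 0.27). The leukotriene pathway gene Alox5ap had 23 counts on EPA and 26 on DHA, the fatty acid receptor gene Ffar4 43 and 41, and the epoxygenase gene Cyp2j6 29 and 19. These genes had too few counts for the filter and were not tested.

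**Figure D3:**
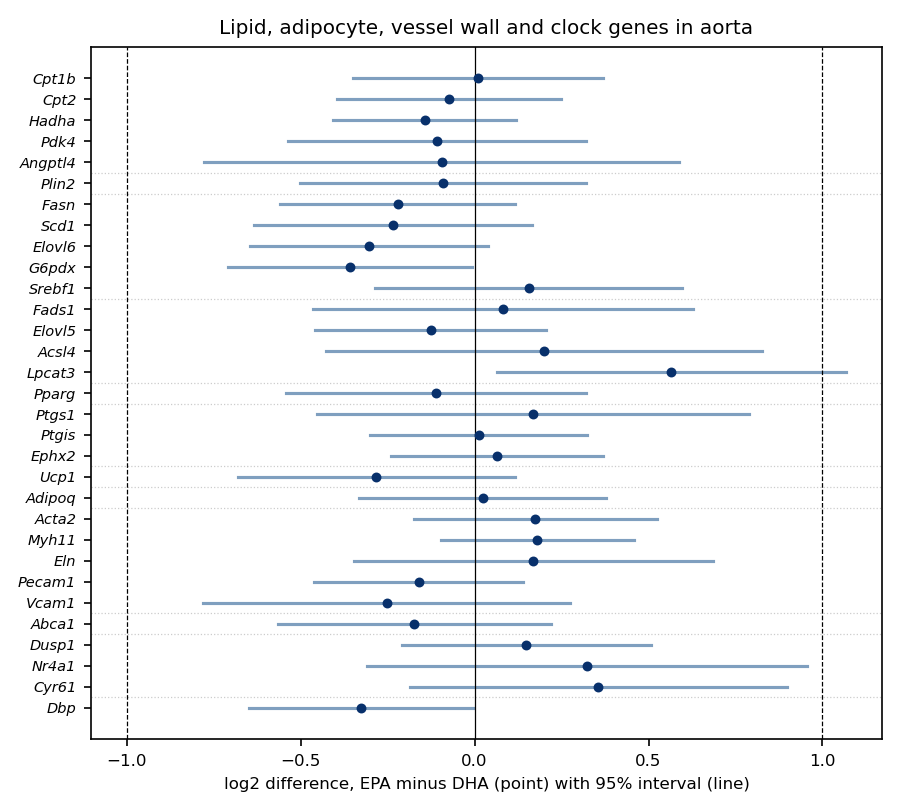
Points are the log2 differences, EPA minus DHA, of tested genes chosen for their role in lipid metabolism, adipocytes, the vessel wall, early response and the clock, and lines are 95% intervals; dashed lines mark 2-fold. G6pdx and Dbp lie below 0 and Lpcat3 above 0 with intervals that leave 0 out before adjustment, and Cpt1b and Ptgis lie at 0.01.

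Adipocyte identity genes lay evenly about 0, and brown adipocyte genes lay mostly below it. Of 24 adipocyte identity genes, 12 were above and 12 below 0 (median -0.02), and of 20 brown adipocyte genes 16 were below (median -0.09). Ucp1 was at 924.9, 1947, 1316, 1708 and 2359 CPM on EPA and 1756, 2577, 1896, 2013 and 1850 CPM on DHA, and at 473.6 to 1304 on OD. The diets overlapped, with EPA replicate 1 lowest, and the log2 difference was -0.28 ± 0.19 (interval -0.68 to 0.12). Adipoq had 0.02 ± 0.17. The brown adipocyte genes lower at an unadjusted p under 0.05 were Cox7a1, Cox8b and Otop1, a proton channel (-0.40 ± 0.18). Cox7a1 and Cox8b are also among the respiratory chain genes counted above. Adrb3, the beta-3 adrenergic receptor of adipocytes, was higher at that p. Of all tested genes, 2.13% were lower and 1.64% higher at that p, and 48.2% lay below 0. Adrb3 was at 35.6, 107.8, 78.6, 99.2 and 107.9 CPM on EPA and 60.9, 59.8, 65.3, 70.7 and 61.2 CPM on DHA, so 4 EPA libraries lay above every DHA library and 1 below (0.47 ± 0.22). Slc2a4, the insulin-responsive glucose transporter GLUT4, was at 24.9, 32.9, 19.6, 43.3 and 37.2 CPM on EPA and 44.9, 38.7, 55.1, 51.7 and 64 CPM on DHA (-0.66 ± 0.23, unadjusted p = 0.00995). Slc27a1, a fatty acid transport protein, was the 1 lipid droplet and uptake gene of 22 at that p (0.47 ± 0.22), and Plin2, the droplet coat protein, had -0.09 ± 0.20. The brown adipocyte median was 0.00 without EPA replicate 1 and -0.14 without the 3 high-Xist libraries, of which it is one.

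Over all 10 libraries, 0 smooth muscle, endothelial or matrix genes were at an unadjusted p under 0.05. Of 28 smooth muscle contractile genes 21 lay above 0 (25% below, against 48.2% of all tested genes), with a median of 0.14. Acta2 was at 7097, 4348, 4736, 3843 and 5004 CPM on EPA and 4785, 3969, 4061, 5221 and 4193 CPM on DHA, with EPA replicate 1 highest, and at 5162 to 7972 on OD (0.17 ± 0.17). Myh11, smooth muscle myosin, had 0.18 ± 0.13 (interval -0.10 to 0.46). All 28 intervals lay within 2-fold. Synpo2, an actin-binding protein of smooth muscle, had the smallest p of the list (0.28 ± 0.14), with EPA replicate 1 at 487.3 CPM and the other EPA libraries at 305.4 to 336.6. Without EPA replicate 1 the smooth muscle median was 0.08, and without the 3 high-Xist libraries 0.01.

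Elastin, Eln, the elastic fibre protein of the media, was at 208.7 to 725.7 CPM on EPA and 235.5 to 542.6 on DHA (0.17 ± 0.25), and its sign turned without EPA replicate 1. Col4a1, a basement membrane collagen, had 0.21 ± 0.13. The median of the 28 matrix genes moved from -0.11 without EPA replicate 1, with 1 gene lower at an unadjusted p under 0.05, to 0.13 without EPA replicate 4. Without the 3 high-Xist libraries it was -0.19 and 4 genes were lower at that p. Pecam1, the endothelial adhesion molecule, was at 119.1 to 156.5 CPM on EPA and 121.8 to 179.6 on DHA (-0.16 ± 0.14), and the 17 endothelial genes had a median of -0.01. Vcam1, which binds leukocytes, had -0.25 ± 0.25. Nos3, endothelial nitric oxide synthase, had 38 counts on EPA and 46 on DHA and was not tested. Of 27 fibroblast genes 20 lay above 0 (median 0.10), with 1, Tnxb, at an unadjusted p under 0.05. Below 0 lay 25.9%, against 48.2% of all tested genes, of which 3.77% were at that p. Without EPA replicate 1 the fibroblast median was -0.01 and 5 genes were lower at that p, so the direction of that list rests on 1 library.

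**Figure D4:**
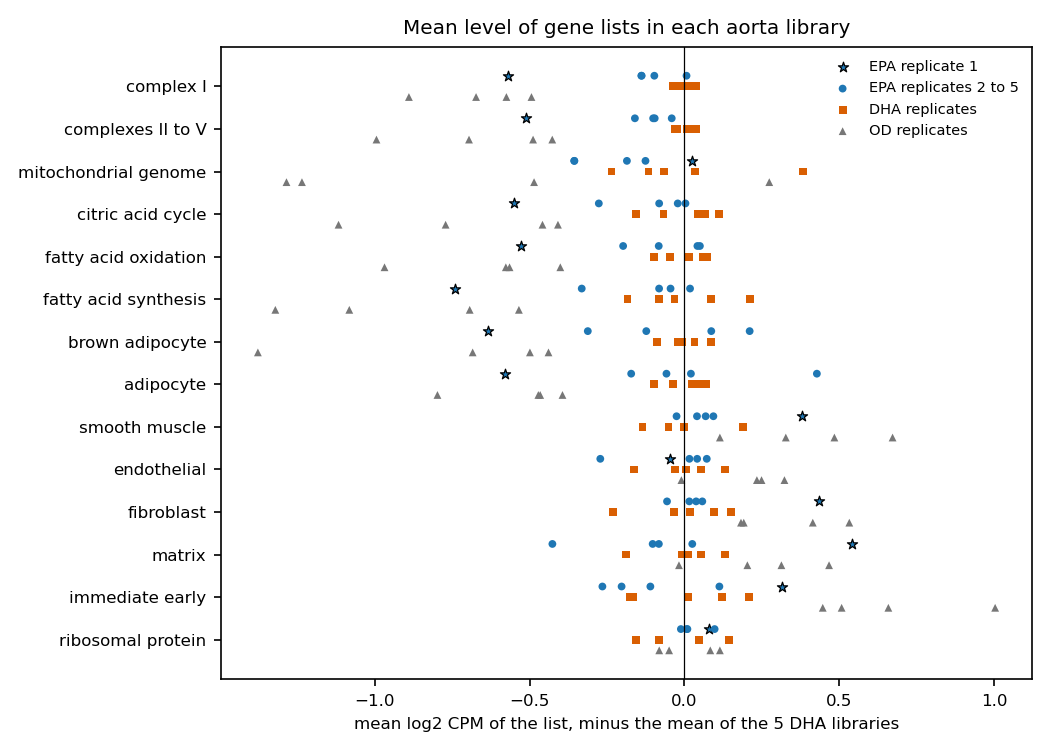
The mean log2 CPM of the tested genes of each list in each aorta library is plotted relative to the mean of the 5 DHA libraries, with EPA replicate 1 as a star. EPA replicate 1 lies with the OD libraries in the respiratory, lipid and smooth muscle lists, at 8.41 for complex I, and the other EPA libraries lie close to the DHA libraries, at 8.84 to 8.99.

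Immune genes were few. H2-Aa, a chain of the class II antigen-presenting molecule, was at 60.5, 36.5, 61.7, 61.1 and 63.2 CPM on EPA and 99.4, 91.4, 171.4, 55.2 and 89 CPM on DHA. Of the DHA libraries, 4 lay above all EPA libraries, and DHA replicate 3 was the highest. The log2 difference was -0.86 ± 0.26 (interval -1.40 to -0.32), and -0.53 without DHA replicate 3. C1qb, a complement component made by macrophages, was at 24.9 to 58.9 CPM on EPA and 41.7 to 59.8 on DHA (-0.49 ± 0.23). It was the 1 of 9 macrophage genes at an unadjusted p under 0.05, where 3.77% of all tested genes lay. Of the 9, 6 lay below 0 and 3 above, with a median of -0.07 and a highest value of 0.80. The 6 lymphocyte and antigen presentation genes had 3 above and 3 below 0, from -0.86 to 0.84, with a median of -0.01. H2-Aa was the 1 of them at that p. None of 5 inflammation and 5 interferon genes was, with medians of 0.06 and 0.11, and Ifi27, an interferon-induced gene, had -0.24 ± 0.14. The galectin gene Lgals3 had 64 counts on EPA and 33 on DHA and was not tested.

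Clock genes had a median of -0.16, with 11 of 14 below 0 and 2 lower at an unadjusted p under 0.05, against 48.2% and 2.13% of all tested genes. The median was -0.07 without DHA replicate 5, and 1 gene was lower at that p without DHA replicate 1. Per3, a period gene, was at 85.4, 56.6, 67.3, 76.3 and 67 CPM on EPA and 86.5, 94.9, 104.1, 93.1 and 108.5 CPM on DHA. Every DHA library lay above every EPA library, by little at the nearest pair, and the log2 difference was -0.49 ± 0.16 (interval -0.83 to -0.15, adjusted p = 0.998). Dbp, an output transcription factor of the clock, was at 134.9 to 210.2 CPM on EPA and 184.4 to 239 on DHA (-0.33 ± 0.15). The core activator Arntl had 12 counts on EPA and 5 on DHA and was not tested. The hour at which each mouse was killed is not given in the sources used here.

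Stress and sterol lists had medians near 0 over all 10 libraries. Of 18 immediate early genes, 19 heat shock chaperones, 17 genes of the unfolded protein response and 9 of cholesterol synthesis and uptake, 0 were at an unadjusted p under 0.05, with medians of 0.03, 0.04, 0.02 and 0.04. Of the immediate early genes, 3 were lower at that p without EPA replicate 1, where their median was -0.02, and 2 without DHA replicate 1. The chaperone median was 0.15 without the 3 high-Xist libraries, with 1 gene higher at that p, and 0.15 without EPA replicate 2. Cyr61, a matricellular early response protein, was at 78.9 to 320.2 CPM on EPA and 99.3 to 163.3 on DHA (0.36 ± 0.26), and Nr4a1, an orphan nuclear receptor, had 0.32 ± 0.30. Dusp1, a MAP kinase phosphatase, had 0.15 ± 0.17 and Egr1, an early transcription factor, -0.54 ± 0.27. The widest difference in the chaperones was that of Hspa1b, an inducible Hsp70, at 28 to 120.9 CPM on EPA and 13.8 to 64.1 on DHA (0.70 ± 0.37, interval -0.08 to 1.48). The efflux transporter gene Abca1 had -0.17 ± 0.19 and P4hb, a protein disulphide isomerase, 0.27 ± 0.14. Hmox1, haem oxygenase 1, had 4 counts on EPA and 2 on DHA and was not tested. Among 27 antioxidant genes, with a median of -0.05, 2 were lower at an unadjusted p under 0.05 (7.41%, against 2.13% of all tested genes). They were Gsta4, a glutathione transferase that removes the lipid peroxidation product hydroxynonenal, and Prdx3, the mitochondrial peroxiredoxin (-0.41 ± 0.19).

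Ribosomal protein genes lay mostly near 0, and markers of other cells were few. Of the 43 ribosomal protein genes 32 were above 0 (median 0.07), and 41 of the 43 intervals lay within 1.5-fold. Their log2 differences ran from -0.73 to 0.34. Below 0 lay 25.6%, against 48.2% of all tested genes. The 6 red cell genes had a median of -0.25, with intervals that reached a median of 1.22 to either side. Their median was -1.17 without EPA replicate 5 and 0.00 without DHA replicate 3, and without the 3 high-Xist libraries it was -1.32 with 5 of the 6 lower at an unadjusted p under 0.05. Bpgm, an enzyme of red cell glycolysis, had -0.43 ± 0.39. The 13 hepatocyte genes tested had a mean log2 CPM of 6.25 on EPA and 6.33 on DHA. Their median log2 difference was -0.15, and Mup3, a major urinary protein, had -0.31 ± 0.21. Of 5 skeletal muscle genes, Pygm, muscle glycogen phosphorylase (0.58 ± 0.27), was the 1 at an unadjusted p under 0.05, where 3.77% of all tested genes lay. The heart list held 1 tested gene, Ryr2 (0.10 ± 0.22), the keratinocyte list 3, with Perp at -0.27 ± 0.22, the Schwann cell and nerve list 4, with Scn7a at 0.16 ± 0.19, and the proliferation list 1, Pcna (0.00 ± 0.21). The Y-linked gene Eif2s3y was at 0 CPM in the 3 high-Xist libraries.

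The genes with the smallest p were led by Zfp706 on the side of EPA. This zinc finger gene was at 135.2, 104.1, 151.5, 160.3 and 126.5 CPM on EPA and 89.7, 91.4, 87.8, 98.3 and 86.2 CPM on DHA. Every EPA library lay above every DHA library, and OD was at 109.8 to 130.1, inside the EPA range and above DHA. The log2 difference was 0.56 ± 0.15 (interval 0.24 to 0.88, adjusted p = 0.998) and 0.49 to 0.66 over the alternatives run. In liver, the same difference was -0.17. The test of aorta against liver gave an unadjusted p of 0.00198 and an adjusted p of 0.9999 in edgeR. That test reuses the aorta values by which the gene was picked, so it adds no separate support. Tmpo, which encodes lamina-associated polypeptide 2 of the nuclear envelope, was at 106.7, 100.5, 95.4, 119.6 and 80 CPM on EPA and 67.3, 70.3, 75.5, 72.4 and 72.3 CPM on DHA, also without overlap (0.47 ± 0.16).

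The other 10 on that side overlapped between the diets. Tnxb, an extracellular matrix tenascin, was at 71.2, 73.1, 64.5, 45.8 and 74.4 CPM on EPA and 41.7, 28.1, 36.7, 48.3 and 47.3 on DHA, with 1 EPA library inside the DHA range (0.69 ± 0.21). Chka, the choline kinase that starts phosphatidylcholine synthesis, was at 32, 40.2, 36.5, 50.9 and 44.6 CPM on EPA and 19.2, 28.1, 18.4, 20.7 and 38.9 on DHA (0.76 ± 0.25). Ikbkb, the kinase that frees NF-kappa B, was at 42.7 to 76.7 CPM on EPA and 14.1 to 51 on DHA (0.82 ± 0.28). Rhoj, an endothelial small GTPase, was at 115 to 156.5 CPM on EPA and 73.8 to 122.4 on DHA (0.50 ± 0.16). The log2 differences of Dpysl3, Mgat1, Cited2 and Exoc3 were 0.58 ± 0.19, 0.68 ± 0.24, 0.57 ± 0.20 and 0.59 ± 0.21. That of Dpysl3 was 0.27 without the libraries with high Xist. Myom1, a sarcomere protein, had 0.43 ± 0.16 and Rpl15, a ribosomal protein gene with pseudogene copies, 0.34 ± 0.12.

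**Figure D5:**
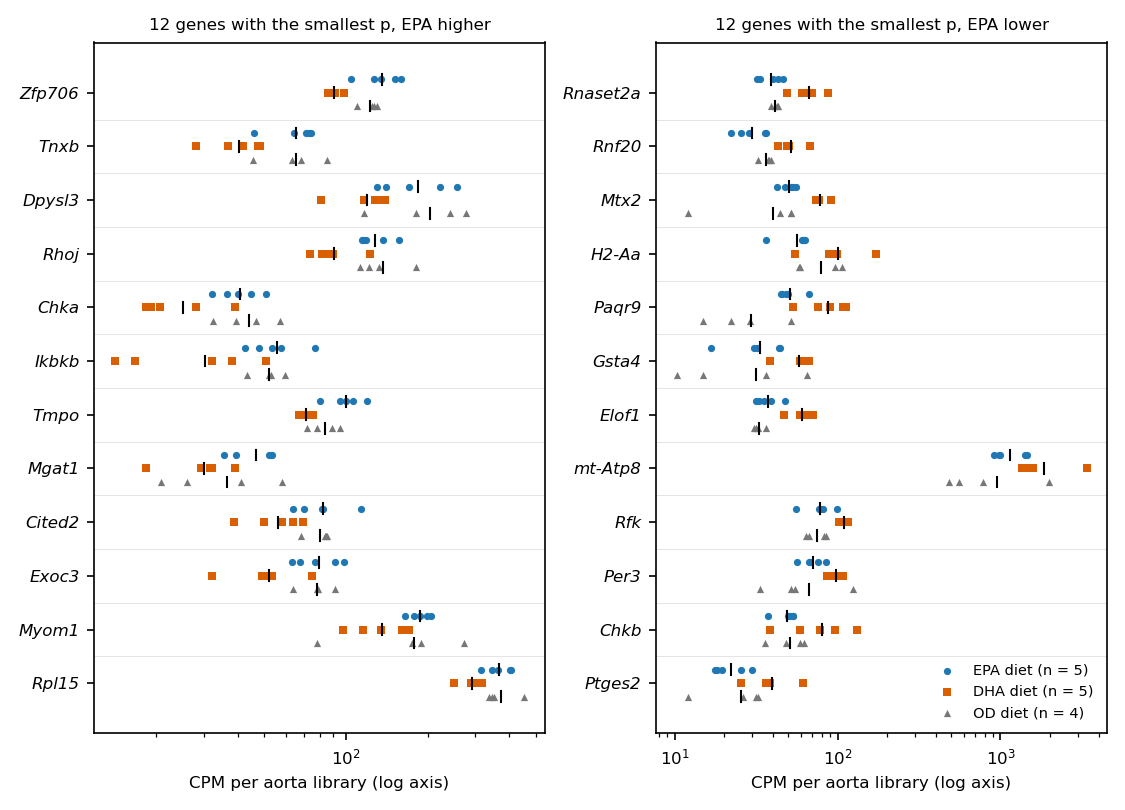
CPM per aorta library, on log axes, for the 12 named genes with the smallest p on each side; small symbols are libraries of the EPA, DHA and OD diets and black bars are group means. Zfp706, Tmpo, Rnaset2a, Rnf20, Mtx2, Rfk and Per3 show no overlap between EPA and DHA libraries, and the other genes overlap.

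On the side of DHA, Rnf20, an E3 ligase for histone H2B, was at 28.5, 25.6, 36.5, 35.6 and 22.3 CPM on EPA and 67.3, 49.2, 42.9, 50 and 50.1 CPM on DHA. The groups did not overlap, and OD, at 32.5 to 39, lay below DHA and overlapped EPA (-0.81 ± 0.23, interval -1.28 to -0.34). Mtx2, a metaxin of the outer mitochondrial membrane, was at 42.7 to 56 CPM on EPA and 73.5 to 91.4 on DHA, without overlap (-0.61 ± 0.17). Rfk, riboflavin kinase, which starts the making of flavin cofactors, was at 78.3, 76.7, 81.4, 99.2 and 55.8 CPM on EPA and 105.8, 101.9, 116.3, 106.9 and 114.1 CPM on DHA, also without overlap (-0.49 ± 0.17). Rnaset2a had the smallest p of the named genes on that side (-0.76 ± 0.20, groups without overlap). It has a near-identical copy, Rnaset2b, with a log2 difference of 0.13 ± 0.23, and how reads were split between them is not given in the sources used here, so the value is uncertain.

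The remaining genes on that side overlapped. Paqr9, a receptor of the progestin and adipoQ family, was at 49.8, 45.7, 44.9, 48.4 and 67 CPM on EPA and 89.7, 112.5, 75.5, 53.4 and 108.5 CPM on DHA, so DHA replicate 4 alone lay inside the EPA range (-0.71 ± 0.22). Gsta4 was at 16.8 to 44.6 CPM on EPA and 38.7 to 67.2 on DHA (-0.76 ± 0.24), and Elof1, a transcription elongation factor, at 31.6 to 47.5 on EPA and 46.9 to 70.5 on DHA (-0.64 ± 0.21). Chkb, the other choline kinase, was at 37.2 to 53.4 CPM on EPA and 38.7 to 131.4 on DHA, opposite in sign to Chka (-0.73 ± 0.25). It lies next to Cpt1b on chromosome 15 on the same strand. The remaining members of the 12, H2-Aa, mt-Atp8, Per3 and Ptges2, are described above. The naming rule passed over predicted genes: Gm20594, which had the lowest p of all genes (unadjusted p = 0.000326; -0.69 ± 0.16; 136.1 ± 15.5 CPM on EPA and 222 ± 51.5 on DHA), and Gm10273 (-1.26 ± 0.36). These were singled out after their values were seen, as were the other 2 genes with a log2 difference beyond 1 in size, Ctla2a (1.11 ± 0.59) and Gm12840 (-1.03 ± 0.48).

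Whether the difference between the diets itself differed between aorta and liver was tested over the 20 EPA and DHA libraries of both tissues. The libraries were taken as independent, since the labels tie no aorta to a liver. Any mice shared between the tissues were thus not accounted for. Of 6927 genes, 0 passed an adjusted p of 0.05 in edgeR's quasi-likelihood test, with 225 (3.25%) at an unadjusted p under 0.05. This does not show that the tissues respond alike.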

How the data were processed

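Counts of 3′ transcript tags per gene were measured in aorta libraries prepared with a kit that adds unique molecular identifiers, per the labels' protocols. The aligner is not given in the sources used here, nor whether reads or identifiers were counted. The authors deposited raw counts per gene and, in a second table headed CPM, normalised values treated here as a score, since its columns sum to 513430 to 1767790; each of its 42 columns is a single multiple of its counts. The submitters' processing notes name edgeR and the build GRCm38.p6. Gene positions are from GENCODE M21. Genes were filtered with edgeR's filterByExpr (minimum count 10) on diet and tested with edgeR 4.0.16 (quasi-likelihood F test, TMM factors, Benjamini-Hochberg over all tested genes, threshold 0.05) in R 4.3.3; DESeq2 1.42.0 and limma 3.58.1 gave alternatives. A standard error is the log2 difference divided by the root of F, and the 95% interval uses the t quantile of the fit. CPM printed per gene are TMM-scaled over the tested genes of all 14 aortas; those of Xist, Acta1 and haemoglobin are of all counts. Log2 CPM of lists adds a prior count of 2. Counts compare a gene between libraries, not genes with each other. No set test was run on lists. Named genes are the 12 with the smallest p each way (predicted genes, clones and pseudogenes left out), 44 genes chosen for their roles, of which 32 were tested, and in each of 35 lists the member with the smallest p plus up to 2 more at an unadjusted p under 0.05. Some genes that the rule names are not reported here. The genes and lists were chosen with earlier results of these data known. Among 20 pairs of libraries of the same diet, none agreed within sampling noise (lowest chi-square per degree of freedom 1.80). The fit was tested on simulated data. Alternatives are another tool, scaling, filter or set of libraries.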

Additional observations from a re-analysis of the deposited data

Results flagged for a closer look

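Dixon's test, for 1 extreme sample in a group, was run on 244 groups of 5 libraries. Chance gives about 1 in 20, and 9.84% were found. Lists and their own members were both scanned, and 1 library can move many values. The groups are therefore not independent, and that share is not directly comparable with chance. Of the 24 values that met the test, EPA replicate 1 stood far from the other EPA libraries in 12. It was lowest in mean log2 CPM of the complex I genes (8.41, others 8.84 to 8.99), the complex II to V genes (9.14, others 9.49 to 9.61), the macrophage genes (5.85, others 6.23 to 6.33), the interferon genes (7.37, others 7.66 to 7.77) and the antioxidant genes (7.09, others 7.31 to 7.37). It was highest for the fibroblast genes (7.93, others 7.44 to 7.55) and the keratinocyte genes (6.08, others 5.61 to 5.72). Among genes, it was lowest for Cox7a1 (1057 CPM, others 1586 to 1694), Cox8b (1508 CPM, others 2285 to 2513) and Ifi27 (334.4 CPM, others 484.1 to 515.3), and highest for Synpo2 (487.3 CPM, others 305.4 to 336.6) and Perp (81.8 CPM, others 40.2 to 50.9). That library also had the lowest total of the 10, 302756 counts.

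In the other EPA libraries, replicate 2 was lowest for H2-Aa (36.5 CPM, others 60.5 to 63.2) and highest for the sum of skeletal muscle genes (2397 CPM, others 254.3 to 480.2). Replicate 3 was highest for the heat shock chaperones (mean log2 CPM 7.75, others 7.21 to 7.34). Replicate 5 was highest for haemoglobin (115900 CPM, others 11730 to 31780) and Paqr9 (67 CPM, others 44.9 to 49.8) and lowest for Chkb (37.2 CPM, others 49.8 to 53.4).

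In the DHA libraries, replicate 1 was highest for mt-Atp8 (3372 CPM, others 1347 to 1585), Elovl6 (839.7 CPM, others 534.3 to 605) and the cholesterol genes (mean log2 CPM 6.08, others 5.78 to 5.83). Replicate 2 was highest for Mtx2 (91.4 CPM, others 73.5 to 76.9) and lowest for Adipoq (277.7 CPM, others 362.2 to 395.9). Replicate 5 was highest for Mup3 (139.1 CPM, others 66.8 to 83.3).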

How the results depend on the processing

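The count of 0 genes past an adjusted p of 0.05 held under every alternative run except the fit without a filter on low counts, which gave 15 of 20395 genes; for the aorta against liver test it gave 13. Of the 15, 7 had passed the filter, 7 had a library at 0 counts and in 8 a single library held over 40% of the counts. They include Xist, Ctla2a (322 of its counts in EPA replicate 5) and the platelet gene Ppbp (57 in EPA replicate 5). H2-Aa, mt-Atp8, Gm20594 and the ribosomal protein gene Rps2 were also among the 15, all lower on EPA. These had no library at 0 counts, and their largest library held 26.1%, 17.6%, 15.6% and 25.3% of the counts. Their adjusted p in that edgeR fit was 0.0286, 0.0062, 0.0201 and 0.0062, against 0.05 passed by none of them with the filter. Genes at an unadjusted p under 0.05 numbered 96 with DESeq2, 861 without a filter and 95 of 2243 with a mean of at least 30 counts, against 200. The share of them higher on EPA was 43.5%, 73.7% with library totals in place of TMM, which moved the median of all genes to 0.06, and 31.9% with the deposited normalised values. Leaving out 1 library at a time, the difference in library totals ranged from -34600 to 50060 counts and that in the mitochondrial share of counts from -2.52 to -0.35 percentage points. Of 2067 values of the 88 named genes under alternatives, 76 in 19 genes changed sign. None were in the 24 genes named for the smallest p each way. Those genes were picked on these same libraries, so their steady sign is no separate support for them. The median of skeletal muscle genes was -0.75 without EPA replicate 2. The alternative without the 3 libraries with Acta1 over 100 CPM, chosen after seeing the data, gave 0 genes past an adjusted p of 0.05; its genes at unadjusted p under 0.05 numbered 157. Depth limits the genes with the lowest levels most. With library totals the medians of the lipid droplet (0.02), adipocyte (0.03), endothelial (0.04), matrix (0.06) and antioxidant (0.00) genes were above 0, at or under the shift of all genes. No paired analysis was possible because the labels give no replicate numbers shared between the diets. The cause of these dependences was not tested.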
